A study of Arabidopsis thaliana with 24 samples.

Results

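RPL4A (AT3G09630), RPL4D (AT5G02870) and RPL28A (AT2G19730) are 3 genes for proteins of the large subunit of the cytosolic ribosome of Arabidopsis thaliana. They were taken by name: every probe set (the group of short oligonucleotides on the array that measures a transcript) annotated to 1 of these loci was included, whatever its level. Each gene had 1 such probe set, and none of these names another gene, so the members are 3 of the 13355 genes that a probe set names alone, and 3 of the 22746 probe sets on the array other than controls. All 3 passed the filter on low values, which left 15471 probe sets to be tested.

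Ribosomal proteins fold together with ribosomal RNA in the nucleolus into a small subunit, which reads the messenger RNA, and a large subunit, which joins amino acids. RPL4 is a core protein of the large subunit that lines part of the tunnel through which the new peptide leaves, and it has relatives in every domain of life. RPL28 is a eukaryotic addition with no bacterial relative, and baker's yeast lacks it. In plants nearly every ribosomal protein is encoded by a small family of similar genes, and their transcripts are typically abundant in young growing tissue, where many ribosomes are built. Arabidopsis mutants of RPL4A or RPL4D are known for altered auxin responses and faulty sorting of proteins to the vacuole.

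Total RNA, labelled with biotin, was hybridised to 24 one-colour arrays that fall into 8 sets of 3 (replicates A, B and C), all from the Col-0 accession in continuous light and without any mutation, transgene or other agent in the labels. Set 7 held the green parts of seedlings from soil, grown at 23 °C with a relative humidity of 65%. Sets 22, 23 and 24 held whole plants of that soil regime, past the floral transition but not bolted, and these 3 sets carry one and the same description, headed developmental drift. Sets 96, 97, 100 and ATGE_101 held the green parts of seedlings kept at 20 °C on 0.5x GM, a growth medium, to which 5% sucrose had been added for sets 97 and ATGE_101 only. The labels of sets 96 and 97 add that most plants looked like the 7-day-old seedlings of set 7; no age is given for the other sets. No label states that replicates are separate plants or cultures, so the p-values measure only the spread between these samples, which may be technical, and the number of arrays limits the precision.

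Values are intensities on a linear scale that the authors had scaled so that the trimmed mean of each array is 100. Replicate arrays correlated with each other at 0.968 or above in log2 level. Of the lists of marker genes drawn up to check the tissue, 2 of 9 photosynthesis genes had a probe set naming them, and the sum of these, LHCB4.1 (a light-harvesting protein) and RCA (Rubisco activase), lay between 8408 and 10777 on the 12 soil arrays and between 5064 and 7814 on the 12 medium arrays. From the root list 2 of 4 were covered: EXPA7, an expansin of root hair cells, had set means of 5.24 to 10.9, near the pseudocount of 6.75, while PYK10, a β-glucosidase abundant in roots and seedlings, averaged 747 in set 7, from 12.6 to 34.4 in the whole plants and from 1000 to 2644 on medium. The 5 flower and 6 dividing-cell markers had no probe set annotated to them, so those tissues could not be checked. Ratios of 3′ to 5′ control probe sets, a sign of RNA quality, are given below where they moved with a comparison; the array carries 2 pairs each for actin, GAPDH and ubiquitin. In bulk tissue of this kind, fewer cells of a type and less RNA per cell cannot be told apart.

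RPL4A was highest in soil seedlings, where arrays A, B and C of set 7 read 2239, 2377 and 2523. In the whole plants it read 1311, 1589 and 1548 in set 22, then 1408, 1421 and 1727 in set 23, and 1459, 1555 and 1477 in set 24. All 9 of these values lay below the lowest of set 7, and the 3 whole-plant sets overlapped. On sugar-free medium it read 1100, 1123 and 1104 in set 96 and 848, 989 and 1067 in set 100. On medium with sucrose the readings were 1251, 1245 and 1263 in set 97 and 991, 963 and 1121 in set ATGE_101. Every medium array was therefore below every whole-plant array, and the tightest sets were 96 and 97.

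RPL4D, the second RPL4 gene, had a like profile. It read 2551, 2576 and 2893 in set 7. The whole plants gave 1547, 1686 and 1585 in set 22, 1485, 1327 and 1538 in set 23, and 1512, 1775 and 1638 in set 24. On medium without sugar it read 1210, 1098 and 1217 in set 96 and 1111, 1117 and 1148 in set 100. With sucrose it read 1462, 1437 and 1404 in set 97, inside the whole-plant range, but 1088, 1088 and 1164 in set ATGE_101. Soil seedlings again stood clear of all other arrays, and the sucrose medium of set 97 reached the level of whole plants.

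RPL28A was less set apart in soil seedlings. It read 1584, 1800 and 1936 in set 7, against 1294, 1453 and 1701 in set 22, 1381, 1400 and 1492 in set 23, and 1476, 1483 and 1520 in set 24. Array C of set 22 thus lay above array A of set 7. The medium sets were all lower than the soil sets: it read 995, 917 and 964 in set 96, 1107, 1070 and 1054 in set 97, 781, 822 and 845 in set 100, and 721, 855 and 924 in set ATGE_101. Within set 7, array A was the lowest and array C the highest for all 3 genes.

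**Figure D1:**
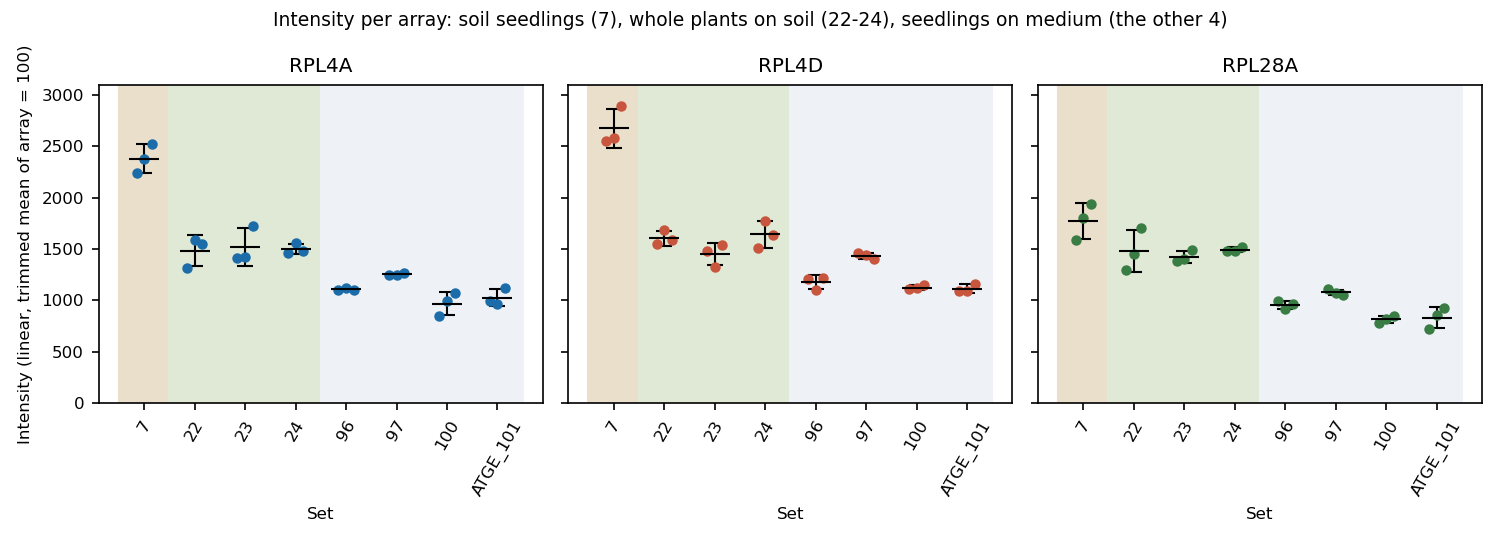
Intensity of RPL4A, RPL4D and RPL28A (linear axis from 0, trimmed mean of each array 100) in each of 24 arrays, by set; points are arrays A, B and C, black bars are the set mean and SD (n = 3). Shading separates soil seedlings (set 7), whole plants (sets 22 to 24) and seedlings on medium (sets 96, 97, 100 and ATGE_101). All 3 genes are highest in set 7, and RPL4A falls from 2380 there to 968 in set 100.

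The order of the sets was almost shared. RPL4A ran from 2380 ± 142 (SD, n = 3) in set 7 through 1519 ± 181 in set 23, 1497 ± 50.8 in set 24, 1483 ± 150 in set 22, 1253 ± 9.20 in set 97, 1109 ± 12.4 in set 96 and 1025 ± 84.5 in set ATGE_101 to 968 ± 111 in set 100. Of the 7 steps between neighbours in that order, limma called the first (adjusted p = 1.23e-05), a pair of sets in which 56.2% of probe sets were called, and none of the others. RPL4D ran from 2673 ± 190 in set 7 through 1642 ± 131 in set 24, 1606 ± 72.1 in set 22, 1450 ± 110 in set 23, 1434 ± 28.9 in set 97, 1175 ± 66.9 in set 96 and 1125 ± 19.8 in set 100 to 1113 ± 43.6 in set ATGE_101. Its called steps were set 7 over set 24 (adjusted p = 3.01e-07), where 57.6% of probe sets were called, and set 97 over set 96 (adjusted p = 0.00991).

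RPL28A ran from 1774 ± 178 in set 7 through 1493 ± 23.7 in set 24, 1482 ± 205 in set 22, 1425 ± 59.1 in set 23, 1077 ± 27.0 in set 97, 959 ± 39.0 in set 96 and 833 ± 103 in set ATGE_101 to 816 ± 32.3 in set 100. Its called steps were set 7 over set 24 (adjusted p = 0.0444) and set 23 over set 97 (adjusted p = 0.00296), where 41.1% of probe sets were called, so the largest gap of RPL28A was between whole plants and medium, and that of both RPL4 genes between soil seedlings and whole plants. Between the highest and the lowest set mean RPL4A spanned 2.46-fold, RPL4D 2.40-fold and RPL28A 2.17-fold. A moderated F test over the 8 sets called all 3 genes (adjusted p = 2.27e-09 for RPL4A, 1.01e-10 for RPL4D and 1.82e-09 for RPL28A), as it did 89.9% of the probe sets tested. The range of the set means was 1.30, 1.26 and 1.11 on the log2 scale, against a median of 0.91 over all tested probe sets.

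Sucrose was tested on medium in 2 pairs of sets. In the pair noted to resemble set 7, all 3 sucrose arrays lay above all 3 sugar-free arrays for each of the 3 genes, as they did for 32.2% of probe sets tested. RPL4D rose by 0.29 ± 0.08 (log2 difference of set 97 minus set 96, with its standard error from limma), or 1.22-fold, and was called (adjusted p = 0.00991). RPL4A differed by 0.18 ± 0.10 (adjusted p = 0.19) and RPL28A by 0.17 ± 0.10 (adjusted p = 0.22), and neither was called. The 1 call among 3 stands beside 33.1% of all probe sets called in this comparison, 20.9% higher and 12.1% lower. Without array B of set 96 the RPL4D difference was 0.24 and not called (adjusted p = 0.0574). After quantile normalization, which forces the same distribution on every array, the differences were 0.29 for RPL4A (adjusted p = 0.0165), 0.41 for RPL4D (adjusted p = 0.00079) and 0.28 for RPL28A (adjusted p = 0.0179), and all 3 were called.

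In the other pair, the 3 genes overlapped between sets and none was called, with 16.7% of probe sets called, 9.9% higher and 6.77% lower. The log2 difference of set ATGE_101 minus set 100 was 0.09 for RPL4A (95% confidence interval -0.12 to 0.29), -0.02 for RPL4D (-0.19 to 0.15) and 0.02 for RPL28A (-0.19 to 0.23). The 2 sucrose effects were then set against each other in the same model. Their difference was -0.30 ± 0.12 for RPL4D (adjusted p = 0.094), -0.09 ± 0.14 for RPL4A (adjusted p = 0.74) and -0.14 ± 0.14 for RPL28A (adjusted p = 0.57). None of the 3 was called, where 12% of probe sets were (5.37% higher, 6.62% lower), so the sucrose response of RPL4D was not shown to differ between the pairs. With only these 4 sets in the fit the RPL4D value passed the threshold (adjusted p = 0.0479).

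The 2 sugar-free medium sets and the 2 sucrose sets were also compared with each other; within each pair, the labels differ by the note on resemblance to set 7 alone. With sucrose, all 3 genes were lower in set ATGE_101 than in set 97, with log2 differences of -0.29 ± 0.10 for RPL4A (adjusted p = 0.0259), -0.36 ± 0.08 for RPL4D (adjusted p = 0.00144) and -0.37 ± 0.10 for RPL28A (adjusted p = 0.00581). All 3 were called, and their arrays did not overlap, against 36.8% of probe sets called (19.1% higher, 17.7% lower) and 25.9% with every array below. The RPL4A call was lost without any 1 of 5 of the 6 arrays, all but array C of set ATGE_101 (adjusted p up to 0.101), and after quantile normalization its difference was -0.19 (adjusted p = 0.0866). Leaving out array A of sets 24, 100 and ATGE_101 together, an alternative chosen after seeing the data, gave -0.27 for RPL4A (adjusted p = 0.061) and -0.28 for RPL28A (adjusted p = 0.0532), neither called.

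Without sugar, no member was called for set 100 minus set 96, where 30.5% of probe sets were, 17.7% higher and 12.7% lower. The differences were -0.20 ± 0.10 for RPL4A (adjusted p = 0.13), -0.06 ± 0.08 for RPL4D (adjusted p = 0.62) and -0.23 ± 0.10 for RPL28A (adjusted p = 0.089). The arrays of set 100 were nevertheless all below those of set 96 for RPL4A and RPL28A, as for 21% of probe sets, and overlapped for RPL4D. After quantile normalization the values were -0.09, 0.09 and -0.11, with the sign of RPL4D turned and none called. Root-marker PYK10 was lower by 1.40 on the log2 scale in set ATGE_101 than in set 97 (-1.40, adjusted p = 0.00045) and by 0.91 in set 100 than in set 96 (-0.91, adjusted p = 0.0162). The 3′ to 5′ ratio of the first actin pair was 8.62 ± 0.43 in set ATGE_101 against 3.80 ± 0.37 in set 97 (SD, n = 3), and that of the second 1.96 ± 0.07 against 2.46 ± 0.19; in sets 100 and 96 the first ranged from 3.10 to 4.51 and from 2.26 to 6.09. The 369 probe sets at least as bright as the dimmest member had a median of -0.22 in set ATGE_101 minus set 97, with 38.5% called lower, and of -0.27 in set 100 minus set 96, with 36.3% called lower. Their part in these differences was not tested.

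Seedlings on medium had less of all 3 transcripts than seedlings on soil. In set 96 RPL4D was 2.27-fold lower than in set 7 (log2 difference -1.18 ± 0.08, adjusted p = 4.13e-11), RPL4A 2.14-fold (-1.10 ± 0.10, adjusted p = 3.13e-09) and RPL28A 1.84-fold (-0.88 ± 0.10, adjusted p = 1.03e-07). In set 97, with sucrose, the fall was 1.89-fold for RPL4A (-0.92, adjusted p = 6.65e-08), 1.86-fold for RPL4D (-0.89, adjusted p = 5.58e-09) and 1.64-fold for RPL28A (-0.71, adjusted p = 2.79e-06). No array of set 96 or 97 reached the lowest array of set 7 for any of the genes. Calls were common in both comparisons: 70.8% of probe sets were called in the first (30.4% higher, 40.4% lower) and 65.3% in the second (31.8% higher, 33.5% lower), and 42.8% and 37.2% had every medium array below every soil array.

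These 2 comparisons share the set 7 arrays and are not independent of each other. Substrate, temperature and any difference of humidity or age go together between soil and medium and cannot be told apart. No humidity is given for the medium sets. The median of all tested probe sets was itself shifted by -0.12 in set 96 minus set 7, so that relative to it RPL4A, RPL4D and RPL28A remained lower. After quantile normalization the set 97 differences shrank by more than 1.5 times, to -0.57 for RPL4A, -0.53 for RPL4D and -0.43 for RPL28A, and stayed called (adjusted p of at most 0.00018). RCA was lower too, by 0.39 in set 96 (-0.39, adjusted p = 0.0172) and by 0.48 in set 97 (-0.48, adjusted p = 0.00462). PYK10 was higher, by 1.60 and 1.81 on the log2 scale. The 3′ to 5′ ratio of the first ubiquitin pair was 3.93 ± 0.37 in set 7 against 2.46 ± 0.22 in set 96 and 2.54 ± 0.05 in set 97 (SD, n = 3). In the same order, the second ubiquitin pair (2.27 against 1.71 and 1.77) and the first actin pair (5.96 against 4.12 and 3.80) were also lower on medium. The first GAPDH pair (0.93 against 1.41 and 1.35), the second GAPDH pair (1.04 against 1.18 and 1.23) and the second actin pair (1.80 against 2.21 and 2.46) were higher. Their part was not tested.

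Whole plants were compared with seedlings of the same soil regime through the mean of sets 22, 23 and 24. RPL4D was 1.71-fold lower in the whole plants (log2 difference -0.77 ± 0.07, adjusted p = 2.49e-09) and RPL4A 1.59-fold lower (-0.67 ± 0.08, adjusted p = 3.70e-07), with no overlap of arrays. RPL28A was 1.21-fold lower (-0.27 ± 0.08, adjusted p = 0.00645), and its arrays overlapped. In all, 65.2% of probe sets were called, 33.3% higher and 31.9% lower, and 22.6% had every whole-plant array below set 7. The RPL28A call was lost without array C of set 7 (-0.21, adjusted p = 0.0654) and after quantile normalization (-0.14, adjusted p = 0.0851). By the labels, organs sampled and stage differ together here, since set 7 is green parts and sets 22 to 24 are whole plants. The 2 root markers did not show root tissue in the whole plants. PYK10 was lower there by 4.71 on the log2 scale (-4.71, adjusted p = 3.91e-13 in limma), and EXPA7 was near the pseudocount there as in set 7. Whether the whole plants included roots was not tested. The 3′ to 5′ ratio of the first actin pair averaged 5.96 in set 7 and 9.01 to 10.1 in the whole-plant sets, and that of the first GAPDH pair 0.93 and 1.16 to 1.83. In the second pairs set 7 had 1.80 against 1.83 to 2.49 and 1.04 against 1.08 to 1.19. The ubiquitin pairs went the other way, with 3.93 in set 7 against 3.06 to 3.80 in the first and 2.27 against 1.87 to 2.13 in the second. Their part was not tested.

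Among the whole-plant sets, whose labels do not differ, none of the 3 genes was called by limma. For set 22 minus the mean of sets 23 and 24 the differences were -0.03 for RPL4A, 0.06 for RPL4D and 0.02 for RPL28A, with unadjusted p of 0.77, 0.41 and 0.87, while 17.6% of probe sets were called, 7.69% higher and 9.89% lower. For set 24 minus set 23 they were -0.01, 0.18 and 0.07, with adjusted p of 0.97, 0.34 and 0.83, in a comparison with 0.853% of probe sets called (0.42% higher, 0.433% lower). By limma's unadjusted p, RPL4D alone passed 0.05 there (unadjusted p = 0.041). The 95% confidence intervals allowed differences of up to 0.35 for RPL4D between sets 24 and 23.

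Set 100 and set ATGE_101 were set against the whole plants as well. All 3 genes were lower in both, with no overlap. RPL28A had the largest difference, -0.84 ± 0.08 in set 100 (adjusted p = 1.68e-08) and -0.81 ± 0.08 in set ATGE_101 (adjusted p = 2.90e-08), that is 1.79-fold and 1.76-fold lower. RPL4A differed by -0.63 (adjusted p = 8.71e-07) and -0.54 (adjusted p = 6.75e-06). RPL4D differed by -0.47 (adjusted p = 3.10e-06) and -0.49 (adjusted p = 2.31e-06). In these comparisons, which share the whole-plant arrays, 61.9% and 59.3% of probe sets were called, 27.9% and 28.8% higher and 34% and 30.5% lower, and 23.5% and 20.2% had every medium array below. Quantile normalization reduced the values for the RPL4 genes by more than 1.5 times in set ATGE_101, to -0.27 for RPL4A (adjusted p = 0.00275) and -0.19 for RPL4D (adjusted p = 0.0223), and RPL4D to -0.24 in set 100 (adjusted p = 0.00429); all remained called. As between seedlings, soil and medium, and here also stage and, by the labels, organs, cannot be told apart. LHCB4.1 (-0.67 in set 100 and -0.65 in set ATGE_101) and RCA (-0.58 and -0.53) were lower on medium as well, and PYK10 was higher (5.41 and 5.13), all called by limma (adjusted p of at most 0.00042). The first ubiquitin pair had a 3′ to 5′ ratio of 2.32 and 2.31 in these medium sets against 3.06 to 3.80 in the whole plants. The first actin pair ranged from 3.10 to 4.51 over the arrays of set 100, below the whole plants at 7.37 to 11.5. In set ATGE_101 it ranged from 8.14 to 8.94, inside the whole-plant range. Their part was not tested.

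**Figure D2:**
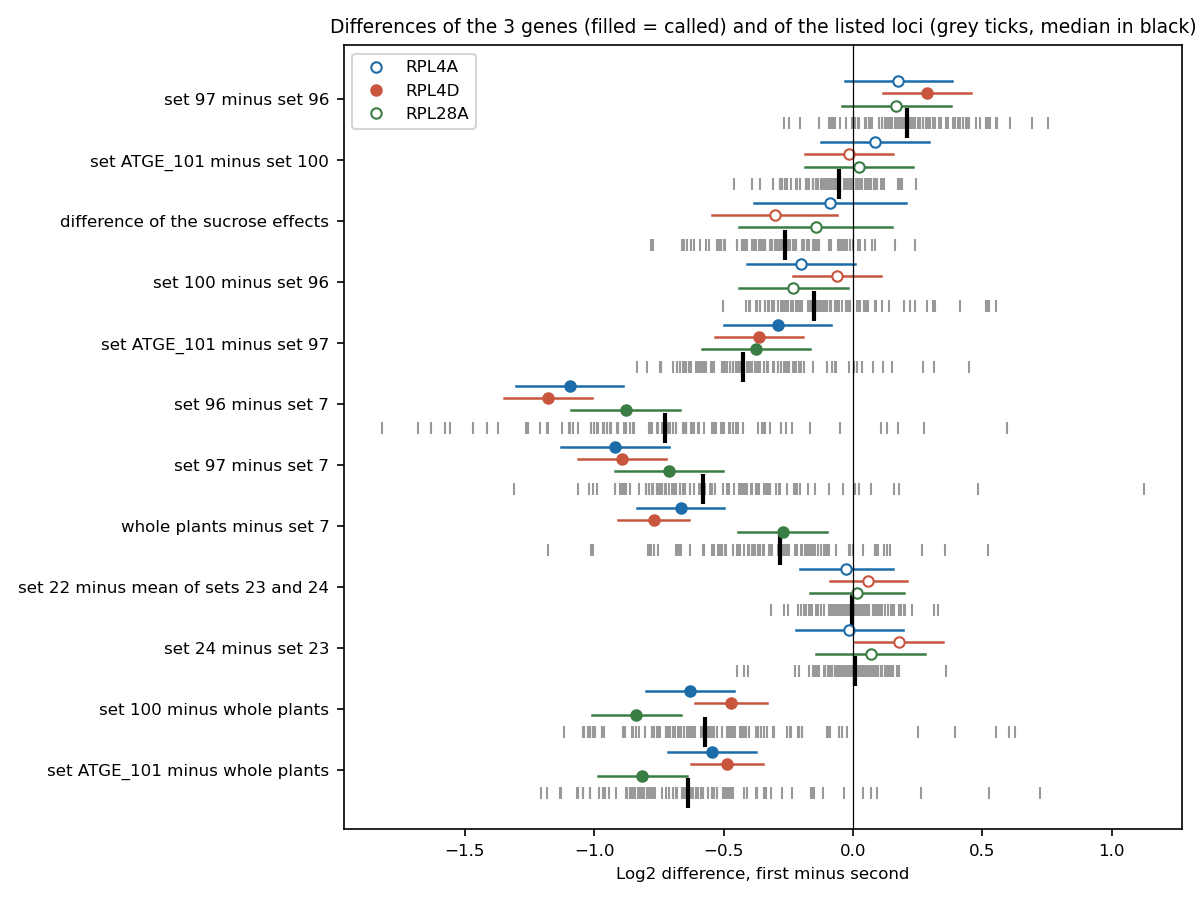
Log2 difference (first set minus second) of RPL4A, RPL4D and RPL28A in 12 comparisons, with 95% confidence intervals from limma; filled points were called at an adjusted p under 0.05. Grey ticks are the 101 tested loci of the cytosolic ribosomal protein list and the black tick their median, which is -0.73 for set 96 minus set 7 and -0.57 for set 100 minus whole plants. The 3 genes are lower on medium than on soil in each such comparison, and none was called among the whole-plant sets.

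The 3 genes lie at the bright end of the arrays, and the bright end as a whole moved between soil and medium, as it did between the medium sets compared above. The highest intensity on an array was between 5655 and 7373 in the soil sets and between 3240 and 5075 in the medium sets. Among the 369 probe sets at least as bright, by mean log2 level, as the dimmest member, the median difference was -0.34 in set 96 minus set 7, -0.54 in set 100 minus whole plants and -0.54 in set ATGE_101 minus whole plants, and 79.1% of them were called lower in set 100 than in whole plants. In that last comparison 61.2% of these bright probe sets had a lower difference than RPL4D, 35.8% a lower one than RPL4A and 10.03% a lower one than RPL28A. In set 96 minus set 7, by contrast, 2.98% had a lower difference than RPL4D, 3.79% than RPL4A and 11.4% than RPL28A. In whole plants minus set 7 the bright probe sets had a median of -0.02, and 3.52%, 7.05% and 30.6% of them lay below RPL4D, RPL4A and RPL28A. After quantile normalization the bright median was -0.09 in set 96 minus set 7 and -0.19 in set 100 minus whole plants, while RPL4A stood at -0.86 and -0.46, RPL4D at -0.93 and -0.24 and RPL28A at -0.70 and -0.67. No ribosomal protein locus, the members included, was left out of the 369. The part of the bright end in the members' differences was otherwise not tested.

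**Figure D3:**
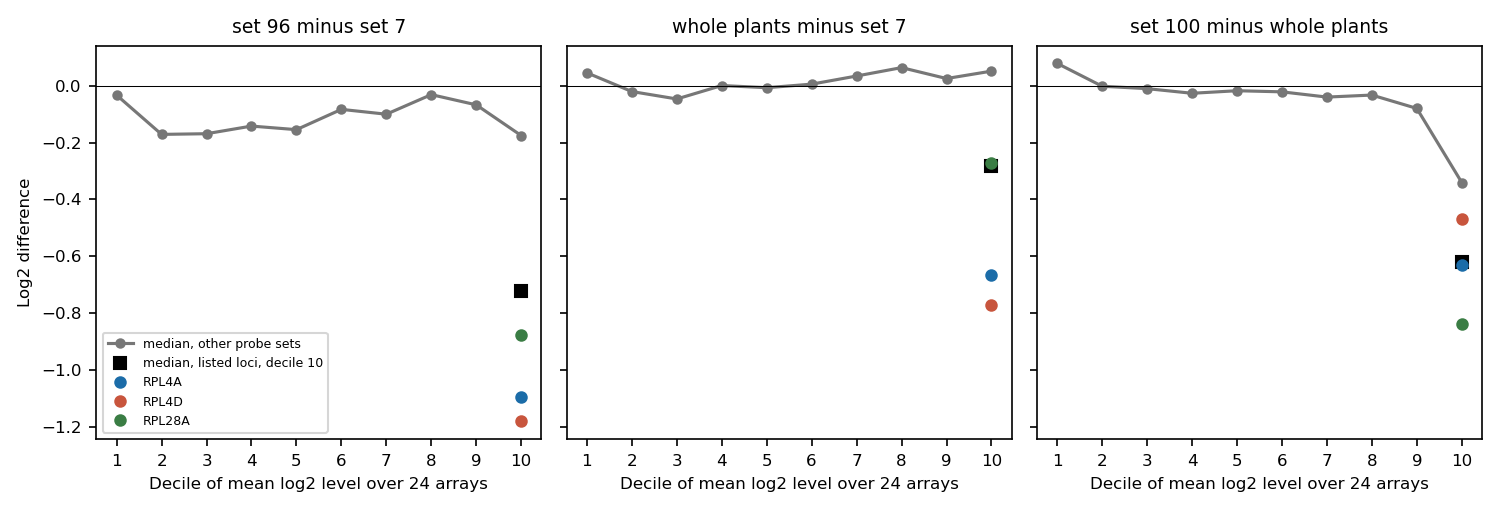
Median log2 difference of tested probe sets other than the listed ribosomal protein loci, by decile of mean log2 level over 24 arrays (decile 10 is the brightest), in 3 comparisons, with the 3 genes and the median of the listed loci in decile 10. The grey line drops in decile 10 for set 100 minus whole plants, to -0.34, and RPL4D, at -0.47, lies near it, whereas in whole plants minus set 7 the line stays at 0.05 and RPL4D lies at -0.77.

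The wider family was followed through a list of 182 loci for cytosolic ribosomal proteins, drawn from general knowledge; the annotation used here gives most of them a locus only, so the protein families named below are background. Of these loci 103 had a probe set of their own and 101 were tested, 42 of the small and 59 of the large subunit, covering 51 families. The 3 genes are among the 101. Counts are of calls over all probe sets tested, and the share of all probe sets called is the one given for each comparison above.

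The list followed the same steps. In set 96 minus set 7, 92 of 101 loci were lower and 2 higher, with a median of -0.73 against -0.12 over all probe sets. In set 97 minus set 7, 87 were lower and 2 higher (median -0.58 against -0.02), and in whole plants minus set 7, 65 were lower and 3 higher (median -0.28 against 0.01). The 3 genes did not sit alike within it: in whole plants minus set 7 RPL4D ranked 95th and RPL4A 90th from the highest of the 101, while RPL28A ranked 47th. Against whole plants, 87 loci were lower and 4 higher in set 100 (median -0.57 against -0.04), and 89 lower and 2 higher in set ATGE_101 (median -0.64 against -0.01). The 369 bright probe sets, from which no listed locus was left out, had a median of -0.54 in both comparisons. Of them 79.1% and 80.8% were called lower, beside 86.1% and 88.1% of the list. In the brightest decile of mean log2 level, the 71 listed loci had medians of -0.62 and -0.64, and the 1477 other probe sets -0.34 and -0.33. In these comparisons RPL28A ranked 82nd and 77th, RPL4A 57th and 38th and RPL4D 39th and 27th. Over the 2 subunits, 37 of 42 small and 55 of 59 large loci were lower in set 96 than in set 7.

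With sucrose, 33 of the 101 loci were higher in set 97 than in set 96 and 0 lower by limma, with a median of 0.21 against 0.08 over all; 88 of the 101 had a difference above 0. With single arrays left out 23 to 27 were higher, and after quantile normalization 52 were. In set ATGE_101 minus set 100, 0 were higher and 5 lower (median -0.05 against 0.03; 1 to 3 lower with single arrays left out), and 31 of the 101 had a difference above 0. In the test of the difference of these effects 17 were lower and 0 higher, a count that was 8 to 13 when single arrays were left out, 24 after quantile normalization and 31 with only these 4 sets in the fit. RPL4D, the member with the largest such difference, ranked 59th of the 101. Between set ATGE_101 and set 97, 70 were lower and 2 higher (median -0.43 against 0.01), and between set 100 and set 96, 22 were lower and 4 higher (median -0.15 against 0.05); the latter count of 22 was 11 without array A of set 100 and 14 without array B of set 96. The bright probe sets had medians of -0.22 and -0.27 in these comparisons, and in the second 21.8% of the list and 36.3% of the bright probe sets were called lower. The list spans all levels, however, so these are not like for like. In the brightest decile of mean log2 level, the 71 listed loci had a median of -0.43 against -0.17 for the 1477 others in the first. In the second the medians were -0.20 and -0.16. Among the whole-plant sets, 1 was higher and 1 lower in set 22 and 0 differed between sets 24 and 23 in limma.

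**Figure D4:**
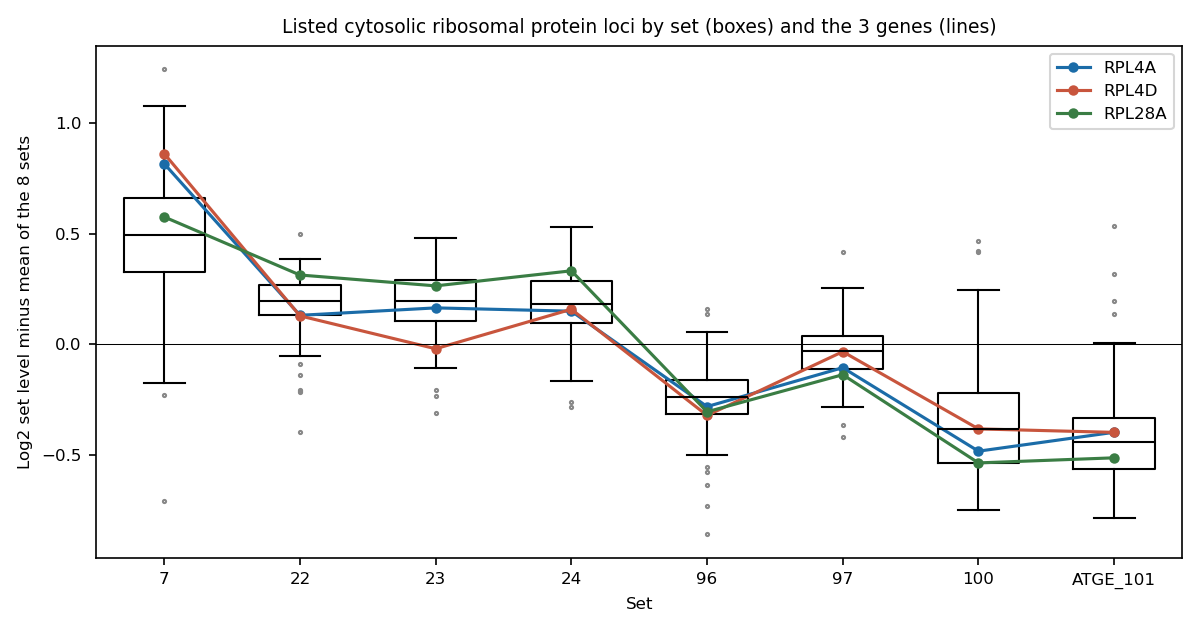
Log2 level of each of 101 tested cytosolic ribosomal protein loci by set, relative to its mean over the 8 sets (boxes show the quartiles, whiskers 1.5 times the box height, points beyond), with RPL4A, RPL4D and RPL28A as lines. The median of the list runs from 0.49 in set 7 through 0.18 to 0.20 in sets 22, 23 and 24 and -0.03 in set 97 to -0.24 in set 96, -0.38 in set 100 and -0.44 in set ATGE_101; RPL4A and RPL4D lie above the box in set 7.

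Some loci of the list did the opposite of the 3 genes. AT5G39850, an RPS9 locus of the small subunit, was at 55.8 ± 4.67 in soil seedlings, 87.6 ± 3.12 in set 96 and 130 ± 12.0 in set 97 (SD, n = 3), so that the log2 difference from set 7 was 0.59 (adjusted p = 7.22e-05) and 1.12 (adjusted p = 1.93e-08). It was also higher in whole plants (0.52, adjusted p = 4.07e-05), in set 100 than in whole plants (0.60) and in set ATGE_101 than in whole plants (0.72). AT3G13580, an RPL7 locus, rose from 307 in whole plants to 480 in set 100 (0.63, adjusted p = 3.77e-06) and 442 in set ATGE_101 (0.52, adjusted p = 3.95e-05). AT4G34555, an RPS25 locus, was higher than in set 7 both in set 97 (0.48, adjusted p = 0.00169) and in whole plants (0.36, adjusted p = 0.00392). AT2G21580, another RPS25 locus, went the other way in the same comparisons, lower in set 97 (-0.65, adjusted p = 2.20e-05) and in whole plants (-0.32, adjusted p = 0.00344), and it also fell by 0.80 between set 97 and set ATGE_101 (-0.80; 130 against 231, adjusted p = 7.29e-06).

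At the lower end, AT1G23410, an RPS27a locus whose product is made fused to ubiquitin, was at 69.4 in set 7 against 15.1 in set 96 (-1.82), 24.4 in set 97 (-1.31) and 27.1 in whole plants (-1.18), differences understated by the pseudocount. AT1G07070, an RPL35a locus, was at 183 ± 13.9 in set 7 and 52.5 ± 4.71 in set 96 (-1.68, adjusted p = 1.17e-12). With sucrose it rose to 88.8 ± 4.91 in set 97 (0.69, adjusted p = 8.60e-06) but stood at 54.2 ± 3.59 in set 100 and 50.5 ± 3.91 in set ATGE_101. AT3G57490, an RPS2 locus, rose most with sucrose in set 97, from 91.3 to 161 (0.75, adjusted p = 0.0222). Other low ends were AT2G20450, an RPL14 locus, in set 97 minus set 7 (-1.06), AT2G40010, a locus for the stalk protein P0, in whole plants minus set 7 (-1.01), AT3G16780, an RPL19 locus, in set 100 minus whole plants (-1.04), and AT5G47930, an RPS27 locus, in set ATGE_101 minus whole plants (-1.18).

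Between medium sets, AT5G22440, an RPL10a locus, fell by 0.83 from set 97 to set ATGE_101 (370 to 205, adjusted p = 5.56e-07), while AT3G13580 (0.45) and AT4G02230 (0.31), an RPL19 locus, were higher in set ATGE_101. From set 96 to set 100 the RPL15 locus AT4G17390 fell from 1063 to 750 (-0.50, adjusted p = 0.00264) and the RPL7 locus AT2G01250 from 1190 to 897 (-0.41, adjusted p = 0.00127), while AT3G51190, an RPL8 locus, was higher at 26.6 against 16.1 (0.55), as was AT5G39850 (0.53). In set ATGE_101 minus set 100 the lowest were AT3G04230, an RPS16 locus (-0.46, adjusted p = 0.00318), and AT5G23900, an RPL13 locus (-0.36, adjusted p = 0.0277). In set 22 the RPS15 locus AT5G09510 was higher (0.31, adjusted p = 0.0159) and AT5G39850 lower (-0.32, adjusted p = 0.0263) than in sets 23 and 24.

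RPL4A and RPL4D, the only loci of their family in the list, kept close to each other. The log2 ratio of RPL4A to RPL4D within an array was taken from its mean over all arrays. Its set means lay between -0.10 ± 0.15 in set 100 and 0.18 ± 0.13 in set 23 (SD, n = 3). Single arrays ranged from -0.27 in set 100 to 0.29 in set 23. Whether the 2 probe sets also bind each other's transcript was not tested. The second RPL28 locus, AT4G29410, shared most calls of RPL28A: it was lower in set 96 than in set 7 by 0.94 on the log2 scale (-0.94, adjusted p = 2.07e-08) and lower in set 100 than in whole plants (-0.72, adjusted p = 8.01e-08). It was also called where RPL28A was not, higher in set 97 than in set 96 (0.36, adjusted p = 0.00669) and lower in set 100 than in set 96 (-0.33, adjusted p = 0.0127); the difference between the 2 loci was not tested. The annotation places AT2G19740, an RPL31 locus, next to RPL28A on the chromosome. Its probe set was at 272 in set 7, 216 in set 96 (-0.32, adjusted p = 0.00378) and 297 in whole plants (0.13, not called), and it read 231 in set 97 and 234 in set ATGE_101 (0.01 ± 0.09, not called), a pair in which RPL28A was called lower.

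The profiles over the 8 set means were alike among the 3 genes, with Pearson's r of 0.978 for RPL4A and RPL4D, 0.939 for RPL4A and RPL28A and 0.889 for RPL4D and RPL28A. Over the 100 other listed loci the median r was 0.92 with RPL4A, 0.88 with RPL4D and 0.94 with RPL28A, against 0.09, 0.08 and 0.11 over all tested probe sets. All these points share the same 8 sets, arrays and scaling, so r is given as a description. Among 8393 tested probe sets that name a single gene, those most like RPL28A were all ribosomal protein loci. They were AT4G16720, an RPL15 locus (0.998), PGY1 (AT2G27530), an RPL10a gene (0.997), and AT3G11510, an RPS14 locus (0.996). Those most like RPL4A were AT5G60930 (0.996), PyrD (AT4G20960), a riboflavin biosynthesis enzyme (0.995), and AT1G63610 (0.995). Those most like RPL4D were AT3G13180 (0.998), AT3G20150 (0.995) and AT5G46580 (0.993), and none of these 6 is in the ribosomal protein list. A high r was common: 793, 628 and 617 of the 8393 exceeded 0.9 with RPL4A, RPL4D and RPL28A.

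Of 12 listed factors for translation and ribosome assembly, only elongation factor eEF1A had a probe set, and it names 4 genes at once. It read 5250 ± 368 in set 7, from 4471 to 4574 as set means in whole plants, 3480 ± 82.4 in set 96, 3443 ± 203 in set 97, 2890 ± 543 in set 100 and 2945 ± 374 in set ATGE_101. It was lower in set 96 than in set 7 (-0.59, adjusted p = 9.73e-05) and in set 100 than in whole plants (-0.67, adjusted p = 2.45e-06), and not called between set 97 and set 96 (-0.02) or in whole plants minus set 7 (-0.21, adjusted p = 0.055). Ribosomal proteins encoded in the plastid genome serve the separate ribosomes of chloroplasts. Of 15 such probe sets tested, 13 were lower and 0 higher in set 96 than in set 7 (median -0.73 against -0.12 over all). Over all tested probe sets 40.4% were lower and 30.4% higher there. In whole plants 10 were lower and 1 higher (median -0.37 against 0.01), where 31.9% of all were lower and 33.3% higher. Between set 97 and set 96, 1 was lower and 0 higher (median -0.15 against 0.08), beside 12.1% lower and 20.9% higher over all. In that comparison 33 of the 101 cytosolic loci were higher. The difference between the plastid and cytosolic lists was not tested.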

How the data were processed

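The authors deposited a linear intensity for each probe set and array, made with MAS5 per the submitters' processing notes (version: not given in the sources used here). The trimmed mean (2% off each end) was found to be 100 on every array. No 2 arrays were identical.

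Groups follow the set numbers of the labels. Intensities became log2(intensity + 6.75), the pseudocount being the 20th percentile of all values, without renormalization; differences of dim probe sets are understated. Probe sets with at least 3 arrays over 22.9, the 40th percentile, were tested. limma 3.58.1 in R 4.3.3 (package data.table, version 1.17.8) fitted 8 set means to 24 arrays with lmFit and eBayes (two-sided; degrees of freedom 16 residual and 4.77 prior). Benjamini-Hochberg adjustment ran over all 15471 probe sets, and a call is an adjusted p under 0.05. The procedure was tested on simulated data.

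The members and lists were chosen with earlier results of these data known. The ribosomal protein list came from general knowledge, since the annotation used here holds no descriptions; 17 tested probe sets naming several listed loci were kept apart. In each comparison the 2 highest and 2 lowest called loci of the list are named, and for each member the 3 genes of highest r. Promoter motifs were not searched, and no sequences, genome build or coordinates are used here.

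As alternatives, the pseudocount was lowered to 1.69 or raised to 27.0, the filter dropped or raised to 61.6, arrays were quantile normalized or brought to a common 75th percentile, the fit was limited to the sets compared, run with trend and robust options or given the replicate letter as a block, and each array was left out. Leaving out array A of sets 24, 100 and ATGE_101 together was added later, from earlier work on these data.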

Additional observations from a re-analysis of the deposited data

Results flagged for a closer look

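Single loci of the list differed in their sucrose response between the 2 pairs of medium sets, by a test of the difference itself for each locus; the list as a whole was not tested. In all, 17 of 101 listed cytosolic ribosomal protein loci had a called difference of the sucrose effects (set ATGE_101 minus set 100, less set 97 minus set 96), all below 0, where 12% of probe sets were called and 6.62% called lower. The other 84 were not called, and with single arrays left out the count was 8 to 13. The median over the 101 loci was -0.26, against -0.04 over all tested probe sets. RPL4A, RPL4D and RPL28A were not among the 17.

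The lowest value of a large-subunit locus was that of AT1G07070, an RPL35a locus, at -0.78 (adjusted p = 0.00069). It rose in all 3 sucrose arrays of set 97, which read 83.4 to 92.9, over set 96, at 49.3 to 57.9, while set ATGE_101, at 46.1 to 53.6, overlapped set 100, at 51.9 to 58.3. AT5G15520, an RPS19 locus, had a difference of -0.66 (adjusted p = 0.0375), with 132 ± 6.66 against 84.9 ± 13.3 in the first pair and 104 ± 19.3 against 107 ± 6.72 in the other (SD, n = 3).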

How the results depend on the processing

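Of the differences of the 3 genes, 19 were called and 17 were not. Under settings that leave out no single array, these stayed called in 179 of 183 fits with no change of sign, and the other 17 became called in 3 of 168 fits and changed sign in 4. The 4 were RPL4D in set 100 minus set 96 (0.09) and in set ATGE_101 minus set 100 (0.05) and RPL4A in set 24 minus set 23 (0.02) under quantile normalization, and RPL4A in set 24 minus set 23 (0.0032) without arrays A. Quantile normalization made the call for set 97 minus set 96 in RPL4A (0.29) and RPL28A (0.28), and ended it for set ATGE_101 minus set 97 in RPL4A (-0.19) and for whole plants minus set 7 in RPL28A (-0.14). With only the sets compared, the difference of the sucrose effects in RPL4D (-0.30) was called. Without arrays A of sets 24, 100 and ATGE_101, set ATGE_101 minus set 97 was not called in RPL4A (-0.27) or RPL28A (-0.28). The causes were not tested. Leaving out single arrays kept the calls in 161 of 168 fits and made none in 129 fits of uncalled differences, 10 of which changed sign. The lost calls lay in RPL28A, whole plants minus set 7 (-0.35 to -0.21), RPL4D, set 97 minus set 96 (0.24 to 0.31), and RPL4A, set ATGE_101 minus set 97 (-0.36 to -0.25). Of the counts over the listed loci, those lower in set ATGE_101 than in set 100, 5 as reported, were 2 with the low pseudocount, no filter, the common 75th percentile or without arrays A, and those lower in set 100 than in set 96 were 12 without arrays A, against 22. The counts of 1 higher and 1 lower in set 22 were 0 to 2 and 0 to 4 with single arrays left out.

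Same-lettered arrays of different sets deviated together with r above 0.1 in 2 of 84 cases (-0.18 to 0.16). No general pairing by letter was seen, but such values cannot exclude it for some genes. With the letter as a block no call of the 3 genes changed; RPL4D in set 97 minus set 96 had an adjusted p of 0.0114 in limma (0.29).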

Other observations

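Another 17 tested probe sets each name several loci of the ribosomal protein list and no other gene, so their values cannot be given to 1 locus. In set 96 minus set 7, 15 of them were lower and 0 higher (median -0.50), where 40.4% of all probe sets were lower and 30.4% higher. In set ATGE_101 minus whole plants 16 were lower and 0 higher (median -0.63), beside 30.5% and 28.8% over all. In whole plants minus set 7, 6 were lower and 1 higher (median -0.09), beside 31.9% and 33.3%. With sucrose, 5 were higher and 0 lower in set 97 minus set 96 (median 0.18), where 20.9% of all were higher and 12.1% lower. In set ATGE_101 minus set 100, 0 were called by limma (median -0.07), where 9.9% of all were higher and 6.77% lower.

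Within set 7 the whole list varied between arrays as the 3 genes did: the median deviation of the 101 loci from their means over sets was 0.38 in array A, 0.50 in array B and 0.62 in array C, and the highest intensity on these arrays was 5655, 6376 and 6741. In set 22 it was 0.08, 0.20 and 0.31 in arrays A, B and C, with highest intensities of 5756, 6371 and 7264. That order of the arrays also held in set 100 (-0.44, -0.37 and -0.36) and in set ATGE_101 (-0.51, -0.43 and -0.40). It did not hold in sets 23, 24, 96 and 97, and the 3 arrays of set 97 lay within -0.05 to -0.02.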
